A study of Mus musculus with 4 samples.

Results

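Integrins and laminins are the genes described here: the 37 genes whose name in the array files is that of an integrin alpha chain, an integrin beta chain or a laminin alpha, beta or gamma chain, of 29675 genes on the array. They were read by 52 of 39429 probes. Where several probes read 1 gene, the brightest on average over the arrays stands for it. The study profiled Swiss 3T3 cells, a mouse fibroblast line, with intact Lpar1 (Lpar1+/+, called WT) or without it (Lpar1-/-, called KO), each in a sample labelled 0 h and one labelled 24 h, all named as cocultured. The protocol gives a coculture of 24 h with mast cells grown from mouse bone marrow, wild-type in genotype, for all 4 groups, and what the labelled times count from is not stated in the sources used here. Lpar1 encodes a receptor for lysophosphatidic acid, and the KO cells came from single-cell cloning after CRISPR/Cas9 editing, so genotype and clone cannot be told apart. Per the labels, the mast cells were grown with IL-3, the coculture held 100 ng/ml SCF, the mast cell growth factor, and afterwards the cells were separated by trypsin and reseeding or by beads against the SCF receptor. The submitters' design also names fibroblasts kept without mast cells, and what the 0 h samples held is not stated in the sources used here. Each of the 4 groups is 1 array of RNA pooled from 3 samples, with no replicate, so no difference below has a test or a p-value.

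Integrins are receptors of 1 alpha and 1 beta chain that tie the cell's actin skeleton to the matrix outside or to other cells. In fibroblasts they bind fibronectin, vitronectin, collagens and laminins, while the beta2 and beta7 chains with their alpha partners serve blood cells. Laminins are large secreted proteins made of 1 alpha, 1 beta and 1 gamma chain, which form the sheet of the basement membrane and are bound by a subset of the integrins. By these roles the members fell into 7 leukocyte integrins, 19 matrix integrins and 11 laminin chains. The alpha4 and alphaIIb chains (Itga4, Itga2b) stand among the matrix integrins by their ligands, although both are well known from blood cells.

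Promoter sequences are shown for 3 members that were lower at 24 h than at 0 h in both genotypes, Itga4, Itga2b and Itgb7. That of Itgam, a leukocyte integrin that stayed within 2-fold by its chosen probe, is also shown. They are RefSeq sequences of build GRCm38.p6, from 250 bases before to 50 bases after the gene's start, 5′ to 3′ on the gene's strand. Capitals mark the ETS motif GAGGAAG, the core bound by PU.1 and related blood cell factors, and the GC box GGGCGG, on either strand.
Itga4, chr2:79255176-79255475, plus strand: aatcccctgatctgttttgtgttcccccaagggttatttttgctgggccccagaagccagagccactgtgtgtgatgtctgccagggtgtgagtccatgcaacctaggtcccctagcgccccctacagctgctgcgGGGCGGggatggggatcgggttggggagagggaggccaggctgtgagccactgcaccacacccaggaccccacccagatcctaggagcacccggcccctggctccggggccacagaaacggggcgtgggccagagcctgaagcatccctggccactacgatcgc
Itga2b, chr11:102469834-102470133, minus strand: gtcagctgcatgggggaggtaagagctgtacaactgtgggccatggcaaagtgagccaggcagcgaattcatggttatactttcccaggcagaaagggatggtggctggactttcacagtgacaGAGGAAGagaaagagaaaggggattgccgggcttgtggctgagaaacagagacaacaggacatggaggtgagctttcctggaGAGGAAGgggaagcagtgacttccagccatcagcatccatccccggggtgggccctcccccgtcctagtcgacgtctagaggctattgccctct
Itgb7, chr15:102231886-102232185, minus strand: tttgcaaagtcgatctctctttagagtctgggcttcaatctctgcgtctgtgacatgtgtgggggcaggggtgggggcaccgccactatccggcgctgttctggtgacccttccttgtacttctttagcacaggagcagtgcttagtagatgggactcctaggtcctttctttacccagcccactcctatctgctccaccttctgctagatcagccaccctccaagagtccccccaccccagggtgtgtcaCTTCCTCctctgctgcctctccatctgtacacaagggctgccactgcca
Itgam, chr7:128062390-128062689, plus strand: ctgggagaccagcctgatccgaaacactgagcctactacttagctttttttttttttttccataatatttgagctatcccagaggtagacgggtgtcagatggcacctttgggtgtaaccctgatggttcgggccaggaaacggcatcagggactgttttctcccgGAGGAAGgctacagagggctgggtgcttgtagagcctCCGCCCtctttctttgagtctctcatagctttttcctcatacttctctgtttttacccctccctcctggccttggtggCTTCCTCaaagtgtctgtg
The promoter table held 26 promoters of 23 of the 37 genes. The ETS motif was in 8 of these 26, against 13.6% of all 32851 promoters in the table, and the GC box in 12, against 35.7%. Of the 4 printed, Itga2b and Itgam held the ETS motif 2 times each, Itgb7 had 1 match and Itga4 none. Median GC content was 50.3% in the 3 leukocyte integrin promoters, 59.0% in 17 of matrix integrins, 59.3% in 6 of laminins and 52.7% in all. TATAAA was in none of the 26 and in 13.6% of all, and AGATAA, the GATA motif, was in 1, that of Itgax, against 11.2% of all.

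Signals below are log2 values relative to the array's own 75th percentile, so 0 is that percentile, and sets of 4 signals are given in the order WT 0 h, WT 24 h, KO 0 h and KO 24 h. A gene counts as measured if both arrays compared (all 4, for a comparison of changes) show its probe well above background. It is called higher or lower at 2-fold, a log2 difference of 1, a limit of size and not of significance. Standard errors (SE) come from the scanner software's error of single spots, 0.20 for most members, and cover neither culture nor labelling. A probe's signal is not set against another probe's.

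The arrays labelled 0 h carried mast cell transcripts that were far lower, though in part still detected, on the 24 h arrays. Of 16 mast cell markers 15, 10, 16 and 9 were well above background, with median signals of 2.29, -5.09, 3.35 and -5.06, and their summed level was 7.95, 0.20, 8.46 and 1.16. Ms4a2, Tpsab1, Cd200r3, Rgs13 and Mrgprb1 were not well above background on either 24 h array, nor was Kit on WT 24 h. Among those still well above background at 24 h, Gata2 read -2.16 in WT and 0.06 in KO. Cpa3 read -1.75 and -1.07 there, and Slc18a2 -2.52 and -1.95. The 15 pan-leukocyte markers had medians of 2.02, -4.75, 3.22 and -5.32, and the 17 fibroblast markers 2.53, 2.66, 1.82 and 2.55. Among the fibroblast markers, Lum was above background on 1 array, and Thy1 read -7.02, -7.41 (not well above background), 3.73 and 4.12. In bulk RNA, fewer cells of a type and less RNA per cell cannot be told apart. Lpar1 read -3.20, -3.15, -3.43 and -3.61, and checks nothing about the genotype, since where its probe lies in the edited gene was not determined. Signals below -4 are called dim. There the 2 dim spike-in RNAs themselves differed by 1.11 (WT, 24 h minus 0 h), -0.26 (KO), 0.64 (KO minus WT at 0 h) and -0.74 (at 24 h), against 0.25, 0.46, 0.33 and 0.53 for the 8 brighter ones.

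**Figure D1:**
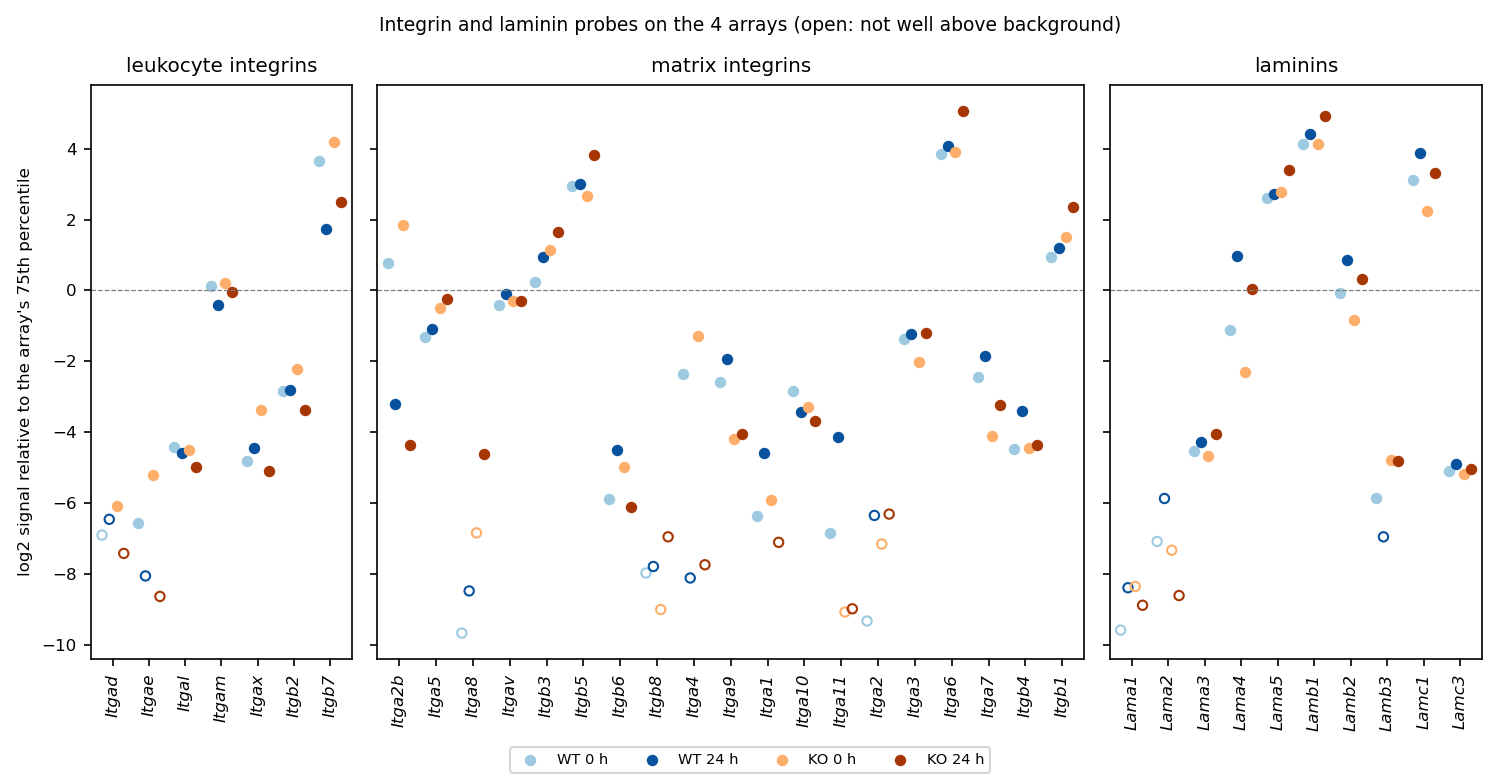
Log2 signal (vertical axis, relative to the array's 75th percentile) of the chosen probe of 36 integrin and laminin genes on the 4 arrays, with filled points well above background and open points not, and 1 point per array. Itga2b and Itga4 are high on both 0 h arrays and low on both 24 h arrays, while Lama4 is higher on the 24 h arrays.

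Among the 7 leukocyte integrins, Itgb7 was lower at 24 h in both genotypes, and Itgb2 and Itgax were past 2-fold lower in KO but not in WT. By their chosen probes, Itgam and Itgal stayed within 2-fold between times. Itgb7, the beta chain that pairs with alpha4 or alphaE (probe on chromosome 15 from 102046450 to 102046509, mm9), had signals of 3.65, 1.75, 4.20 and 2.49. In each genotype the 0 h array lay above the 24 h array. WT differed between times by -1.90 and KO by -1.71 (SE 0.20 each), or 3.72-fold and 3.26-fold lower at 24 h. The mast cell markers measured at both times had median differences of -7.08 in WT and -7.88 in KO, and their part in the Itgb7 result was not tested.

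Itgae, the alphaE chain that binds E-cadherin with beta7, read -6.57 and -5.22 at 0 h in WT and KO and was not well above background on either 24 h array. Only its KO 0 h signal was far enough from the floor to give a bound past 2-fold, at least 2.76-fold higher than at 24 h. Such a bound divides the bright signal by the dim one, or by the array's faintest signal still well above background where the dim one lies under it. Some probes above that faintest signal were still not well above background. On WT 24 h Lama2 read -5.88, against a faintest signal of -6.16. Each at-least fold in this text therefore rests on that choice and is approximate.

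Itgb2, the common chain of the leukocyte beta2 integrins (chromosome 10 from 77027978 to 77028037, mm9), had signals of -2.85, -2.82, -2.22 and -3.38. It differed between times by 0.03 in WT and -1.15 in KO (SE 0.21 each). The KO difference was -0.58 with normexp background correction and -0.87 with quantile normalization, both under 2-fold, and -1.88 when arrays were scaled to fibroblast markers. Itgax, the alphaX chain of dendritic cells and macrophages, read -4.81, -4.46, -3.36 and -5.10, highest on KO 0 h. Its KO difference between times was -1.74 (SE 0.24), but -0.60 with normexp, and 3 of its 4 signals were dim.

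Itgam, the alphaM chain of the complement receptor of phagocytes, read 0.12, -0.41, 0.21 and -0.05 by its chosen probe. That probe opens with repeated CA bases, whose part in its signal was not tested. Its differences between times of -0.52 in WT and -0.25 in KO (SE 0.20) were both short of 2-fold. The other 2 Itgam probes were dim, at -5.18, -4.78, -4.82 and -5.04 and at -5.82, -4.66, -5.28 and -6.09. The latter differed between times by 1.16 in WT, past 2-fold. Itgal, the alphaL chain of the lymphocyte receptor for ICAM, was dim and flat by its chosen probe, at -4.43, -4.58, -4.50 and -4.99. Its second probe differed between times by 0.72 in WT and was not well above background on KO 24 h. Itgad was above background on KO 0 h alone, at -6.08, which bounds it at least 1.77-fold over WT 0 h and 1.52-fold over KO 24 h. Over the 5 leukocyte integrins measured at both times, the median difference was -0.15 in WT, where 1 was lower and 0 higher, and -1.15 in KO, where 3 were lower and 0 higher. Of all genes, 5.57% were lower in WT and 10.9% in KO. With the mean of probes the WT median was 0.03, of the opposite sign. All genes had medians of 0.28 and 0.23. KO minus WT, the leukocyte integrins had a median of 0.59 at 0 h, with 2 of 6 higher beside 9.34% of all genes. At 24 h the median was -0.41, or 0.10 with quantile normalization, with 0 of 5 past 2-fold beside 18.0% of all genes.

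**Figure D2:**
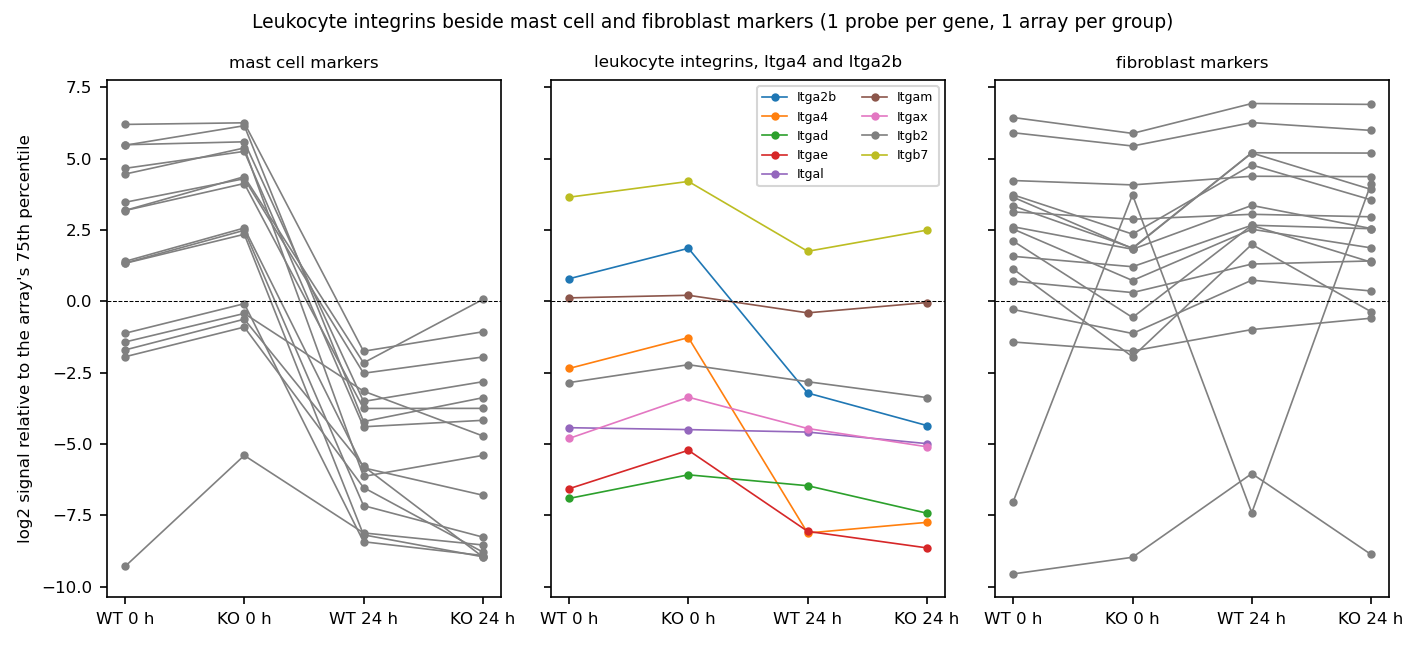
Log2 signal (vertical axis, relative to the array's 75th percentile) on the 4 arrays for 16 mast cell markers, for the leukocyte integrins with Itga4 and Itga2b, and for 17 fibroblast markers, with lines joining the values of 1 gene. Itga4 and Itga2b are low at 24 h like the mast cell markers, and Itgb7 is lower by 1.90 or less on the log2 scale. The chosen probe of Itgam stays between -0.41 and 0.21.

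Itga4 and Itga2b had the widest differences between times of all members, by measured or bounded folds. Itga4, whose chain pairs with beta1 or beta7 to bind VCAM and fibronectin (chromosome 2 from 79173193 to 79173252, mm9), had 0 h signals of -2.35 in WT and -1.28 in KO. On the 24 h arrays it was not well above background, at -8.12 and -7.75, so it was at least 14.0-fold higher at 0 h in WT and at least 42.7-fold in KO. Itga2b, the alphaIIb chain of the platelet fibrinogen receptor, also known from early blood cells (chromosome 11 from 102319453 to 102319661, mm9), read 0.79, -3.22, 1.85 and -4.36. The difference between times was -4.0 in WT and -6.21 in KO (SE 0.21 and 0.22), or 16.0-fold and 74.0-fold lower.

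Both genes moved with the mast cell markers, and the part of those cells' RNA in their differences was not tested. The KO minus WT difference at 0 h was 1.08 for Itga4 and 1.07 for Itga2b (SE 0.20 each), beside medians of 1.00 for the mast cell markers and 1.05 for the pan-leukocyte markers. At 24 h Itga2b was lower in KO by -1.14 (SE 0.22), though by -0.59 with normexp.

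Among integrin activators and adhesion-site proteins, Fermt3, Parvg and Ptk2b were lower at 24 h in both genotypes. Fermt3 encodes kindlin-3, the blood cell protein that activates integrins with talin, and read -0.20, -5.58, 0.94 and -5.89, a difference between times of -5.38 in WT and -6.83 in KO. Parvg, the blood cell parvin, was lower by -3.17 and -4.26, and Ptk2b, the kinase PYK2, by -1.31 and -2.13. Other activators known from blood cells were not lower: Apbb1ip, which encodes the talin partner RIAM, differed by 0.50 and 0.24, and Rasgrp2, an exchange factor for the small GTPase Rap1 in platelets, by 2.91 and 0.54. Of widely expressed relatives, Fermt2 (kindlin-2) differed by 0.94 and 0.42, Parva by 0.41 and 0.67 and Ptk2 (focal adhesion kinase) by 0.59 and 1.19. Of 29 measured activators and adhesion-site proteins, 2 were higher and 3 lower in WT, 17.2% past 2-fold beside 21.4% of all genes. In KO 1 was higher and 3 lower, 13.8% beside 20.4%, so neither share was above that of all genes. Beside Rasgrp2, the WT gene called higher was Tgfb1i1 (1.11), which encodes Hic-5.

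Of the 19 matrix integrins, 15 were measured at both times in WT and 13 in KO. Past 2-fold were 33.3% of these in WT and 30.8% in KO, beside 21.4% and 20.4% of all genes. In WT 4 were higher (Itga11, Itga1, Itgb6 and Itgb4) and 1 lower (Itga2b). In KO 2 were higher (Itga6 and Itgb5) and 2 lower (Itga2b and Itgb6). The 8 brighter spike-ins differed by 0.46 in KO, and the part of this in the bright Itga6 and Itgb5 was not tested. Over all 37 genes, 7 of 28 measured members passed 2-fold in WT, 25.0% beside 21.4% of all genes. There 5 members were higher and 2 lower, beside 15.8% and 5.57% of all genes. In KO 11 of 27 did so, 40.7% beside 20.4%, with 6 higher and 5 lower, beside 9.48% and 10.9%. The matrix integrins' median difference was 0.32 in WT and 0.25 in KO, beside 0.28 and 0.23 for all genes. Scaled to fibroblast markers the KO median was -0.47, and that of all genes -0.50. All 4 WT members called higher were dim at 0 h, where genes with a dim mean signal were called higher in 45.8% of cases.

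Integrins that bind fibronectin and vitronectin were read by Itga5, Itgav, Itgb3 and Itgb5, with the shared beta1 chain Itgb1. Itgb5, which pairs with alphaV to bind vitronectin (chromosome 16 from 33949123 to 33949182, mm9), read 2.95, 3.00, 2.68 and 3.82, so that KO 24 h alone stood out. Its difference between times was 0.05 in WT and 1.14 in KO (SE 0.20), the latter 0.86 with quantile normalization and 0.42 scaled to fibroblast markers. The KO change minus the WT change was 1.1 (SE 0.29), and 0.51 with the fibroblast scaling.

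Itgb1, the partner of most matrix alpha chains (chromosome 8 from 131250081 to 131255976, mm9, a span wider than the probe), read 0.96, 1.19, 1.5 and 2.35, again highest on KO 24 h. KO exceeded WT there by 1.16 (SE 0.20), or 2.24-fold, and by 0.55 at 0 h, or 1.25 with the fibroblast scaling. Its second probe gave 0.40 and 0.24, and the mean of both gave 0.78 at 24 h, under 2-fold. Itga5, the alpha chain of the fibronectin receptor, read -1.30, -1.09, -0.49 and -0.24. KO lay above WT by 0.81 at 0 h and 0.85 at 24 h (SE 0.20), short of 2-fold. With the fibroblast scaling the 0 h difference was 1.52, where all genes had a median of 0.76.

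Itgb3, the beta chain of the vitronectin receptor, read 0.23, 0.94, 1.13 and 1.65. KO was above WT by 0.90 at 0 h, or 1.61 with the fibroblast scaling, and by 0.72 at 24 h (SE 0.20). The second Itgb3 probe gave 1.46 and 1.58, past 2-fold. Itgav, the alpha chain shared by beta1, beta3, beta5, beta6 and beta8, was nearly flat at -0.42, -0.10, -0.31 and -0.30. None of its 4 differences exceeded 0.32, although its second probe was 0.73 higher in KO at 24 h.

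The remaining chains of this class were at or near background. Itgb6, an epithelial partner of alphaV that activates TGF-beta, read -5.89, -4.51, -4.98 and -6.11 and is taken up with the differences between genotypes in their change. Itga8, which binds nephronectin, was above background on KO 24 h alone, at -4.62. Its bounds, approximate as stated for Itgae, were 4.43-fold over KO 0 h and 2.91-fold over WT 24 h. The SE of its KO minus WT difference at 24 h was 1.45. Itgb8 was at background throughout.

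Among the laminin-binding integrins was Itga6, the alpha6 chain of epithelial and stem cells (chromosome 2 from 71694756 to 71694815, mm9). Its signals were 3.85, 4.07, 3.92 and 5.08, so 3 arrays lay close together and KO 24 h above them. KO 24 h exceeded KO 0 h by 1.16 and WT 24 h by 1.01 (SE 0.20 each), or 2.23-fold and 2.01-fold. The first of these was under 2-fold with quantile normalization (0.81), normexp (0.93) and the fibroblast scaling (0.43), and the second was 0.99 with quantile normalization. A second probe, placed on an Ensembl transcript from 71690633 to 71690692, read 0.98, -0.28, 2.14 and 0.88. Between times it differed by -1.26 in WT and -1.25 in KO, the opposite of the first probe's direction, and the mean of both probes differed by -0.05 in KO. In KO minus WT at 24 h the probes gave 1.01 and 1.16.

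The first 30 of the 60 bases of each probe are shown because Itga6 and Itga4 are read differently by their probes.
Itga6, chosen probe: gagaatgagaacctgggaggtcttgttgtt
Itga6, second probe: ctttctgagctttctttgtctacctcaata
Itga4, chosen probe: gtgtgtggaatgcattataaagatctaaca
Itga4, second probe: taagatcttagacctggaagagaaacaaat
The second Itga4 probe, which spans 79153985 to 79155115 on chromosome 2 (mm9), was at background throughout. The place of probes relative to exons was not analysed here.

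Itga7, the laminin receptor of muscle (chromosome 10 from 128395274 to 128395333, mm9), read -2.45, -1.86, -4.11 and -3.23. At each time KO lay below WT, by -1.66 at 0 h and -1.37 at 24 h (SE 0.21), or 3.17-fold and 2.58-fold, though by -0.96 and -0.94 with normexp. Itga3, an alpha chain for laminins of epithelia, read -1.38, -1.24, -2.01 and -1.21, lowest on KO 0 h, with no difference past 2-fold. Itgb4, the partner of alpha6 in hemidesmosomes, read -4.49, -3.42, -4.44 and -4.35, highest on WT 24 h. Its WT difference of 1.07 (SE 0.22) was 0.59 with normexp.

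Collagen-binding integrins were mostly near background. Itga11, the collagen receptor of fibroblasts (chromosome 9 from 62631667 to 62631726, mm9), was above background on both WT arrays, at -6.86 and -4.15, and on neither KO array. WT 24 h was 2.71 above WT 0 h (SE 0.30), or 0.86 with normexp, and at least 5.81-fold above KO 24 h. Itga1, the alpha1 chain, read -6.36 and -4.60 in WT and -5.93 on KO 0 h, and was not well above background on KO 24 h. WT 24 h was 1.76 above WT 0 h (SE 0.30), or 0.32 with normexp, and at least 4.25-fold above KO 24 h.

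Itga10, known from cartilage, was measured on all arrays at -2.84, -3.43, -3.30 and -3.70, with no difference past 0.59 in size. Itga2 was not well above background anywhere. Itga9, a receptor for tenascin and osteopontin (chromosome 9 from 118807900 to 118807959, mm9), read -2.57, -1.93, -4.21 and -4.07. At each time KO lay below WT, by -1.63 at 0 h and -2.14 at 24 h (SE 0.21), or 3.10-fold and 4.40-fold lower. Over the 7 alternatives the difference lay between -2.14 and -1.45 at 24 h and between -1.71 and -0.93 at 0 h.

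Laminin chains differed between times much as all genes did in WT, while more of them passed 2-fold in KO. Their median was 0.27 in WT and 0.78 in KO, beside 0.28 and 0.23 over all genes. At least 2-fold higher were 1 in WT, Lama4, and 4 in KO, with Lama4, Lamb2 and Lamc1 among them, and 0 were lower in either. These are 12.5% of 8 measured in WT, beside 15.8% of all genes, and 44.4% of 9 in KO, beside 9.48%. Scaled to fibroblast markers the KO median was 0.05, where all genes had -0.50. The fibroblast markers themselves had medians of 0.60 and 1.15, and their part in the laminin values was not tested. The 8 brighter spike-ins differed by 0.25 in WT and 0.46 in KO, and the part of this was not tested either.

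Lama4, the alpha4 laminin chain of mesenchyme and blood vessels (chromosome 10 from 38825794 to 38825853, mm9), read -1.13, 0.96, -2.31 and 0.04. In each genotype the 24 h array lay above the 0 h array, by 2.09 in WT and 2.35 in KO (SE 0.20 each), or 4.26-fold and 5.10-fold. These differences ranged from 1.96 to 2.14 and from 1.63 to 2.48 over the 7 alternatives, past 2-fold in each. KO was lower than WT by -1.18 at 0 h, though -0.48 with the fibroblast scaling, and by -0.92 at 24 h. Lama5, the alpha chain of most adult basement membranes, read 2.61, 2.72, 2.79 and 3.40, and Lama3, an epithelial alpha chain, read -4.52, -4.28, -4.67 and -4.07. Neither passed 2-fold in any difference. Lama1 and Lama2 were at background throughout by the chosen probe.

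The beta and gamma chains that join Lama4 and Lama5 had smaller differences between times than Lama4. Lamb1, the widely used beta1 chain, read 4.14, 4.41, 4.15 and 4.92, with differences between times of 0.27 and 0.78. Lamb2, the beta2 chain of synapses and kidney, read -0.08, 0.86, -0.84 and 0.33, with differences of 0.94 in WT and 1.17 in KO (SE 0.20), the latter 0.44 with the fibroblast scaling. Lamc1, the gamma1 chain of most laminins (chromosome 1 from 155066156 to 155066215, mm9), read 3.13, 3.88, 2.25 and 3.32. Its difference was 0.75 in WT and 1.07 in KO (SE 0.20), the latter 0.82 with quantile normalization and 0.34 with the fibroblast scaling.

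Lamb3, a beta chain of epithelial laminin, was dim at -5.86, -4.79 and -4.83 on WT 0 h, KO 0 h and KO 24 h and not above background on WT 24 h. KO 24 h was at least 2.52-fold above WT 24 h, and KO 0 h was 1.06 above WT 0 h, or 0.23 with normexp. Lamc3 was dim and flat by its chosen probe, at -5.10, -4.89, -5.18 and -5.04. Its second probe, also dim, differed between times by 1.27 in WT and was not well above background on KO 24 h.

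**Figure D3:**
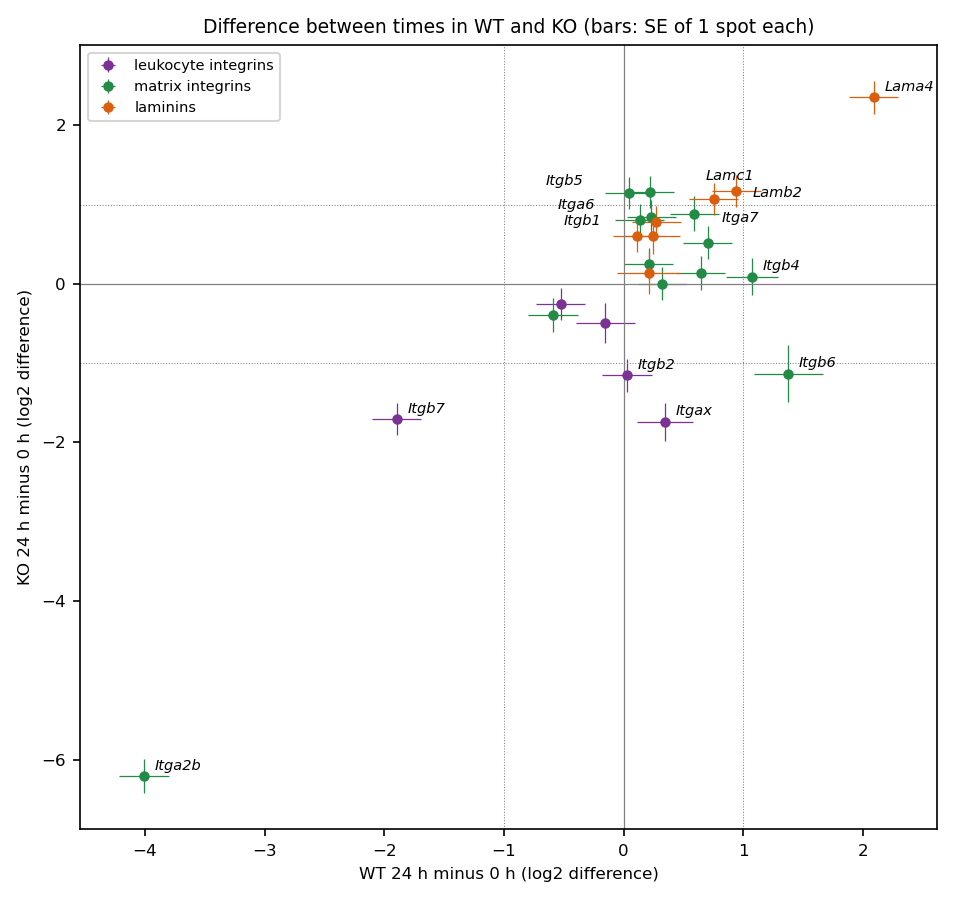
Log2 difference between 24 h and 0 h in WT (horizontal) against KO (vertical) for 25 integrin and laminin genes measured on all 4 arrays, with SE bars from the error of single spots and dotted lines at 2-fold. Itga2b and Itgb7 are lower in both, Lama4 is higher in both, and Itgb6 lies at 1.38 and -1.13.

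Between genotypes, Itga7 and Itga9 were at least 2-fold lower in KO at both times. Lamb3, a dim gene, was called higher at 0 h, though at 0.73 with quantile normalization and 0.23 with normexp. Its bound at 24 h was 2.52-fold. At 0 h, 8 of 30 measured members were past 2-fold, 26.7% beside 13.4% of all genes (9.34% higher and 4.07% lower): Itga2b, Itga4, Itgax, Itgae and Lamb3 higher and Itga7, Itga9 and Lama4 lower. With normexp Itgae was 0.21, Itgax 0.59 and Itga4 0.89, each under 2-fold, and Itgae was 0.94 with quantile normalization. Of the 5 higher, Itga2b, Itga4, Itgax and Itgae are blood cell genes, and the mast cell markers were higher in KO at 0 h by a median of 1.00. The fibroblast markers were lower by -0.67. Scaled to them, 12 of 30 members were higher and 0 lower in KO at 0 h, beside 7226 and 282 of 20317 genes. The median of all genes was then 0.76.

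At 24 h, 6 of 26 measured members were past 2-fold between genotypes, 23.1% beside 18.0% of all genes (5.76% higher and 12.3% lower). Itgb1 and Itga6 were higher and Itga7, Itga9, Itga2b and Itgb6 lower in KO. The 8 brighter spike-ins were 0.53 higher in KO at 24 h, and the part of this in Itgb1 and Itga6 was not tested. By at-least folds, Itga8 and Lamb3 were also higher and Itga1 and Itga11 lower. The median over matrix integrins was -0.20 at 24 h and 0.12 at 0 h, and over laminins 0.03 and -0.14, against -0.09 and 0.06 over all genes. With the mean of probes the matrix median at 24 h was 0.04, and with the fibroblast scaling the laminin median at 0 h was 0.56, each of the opposite sign.

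**Figure D4:**
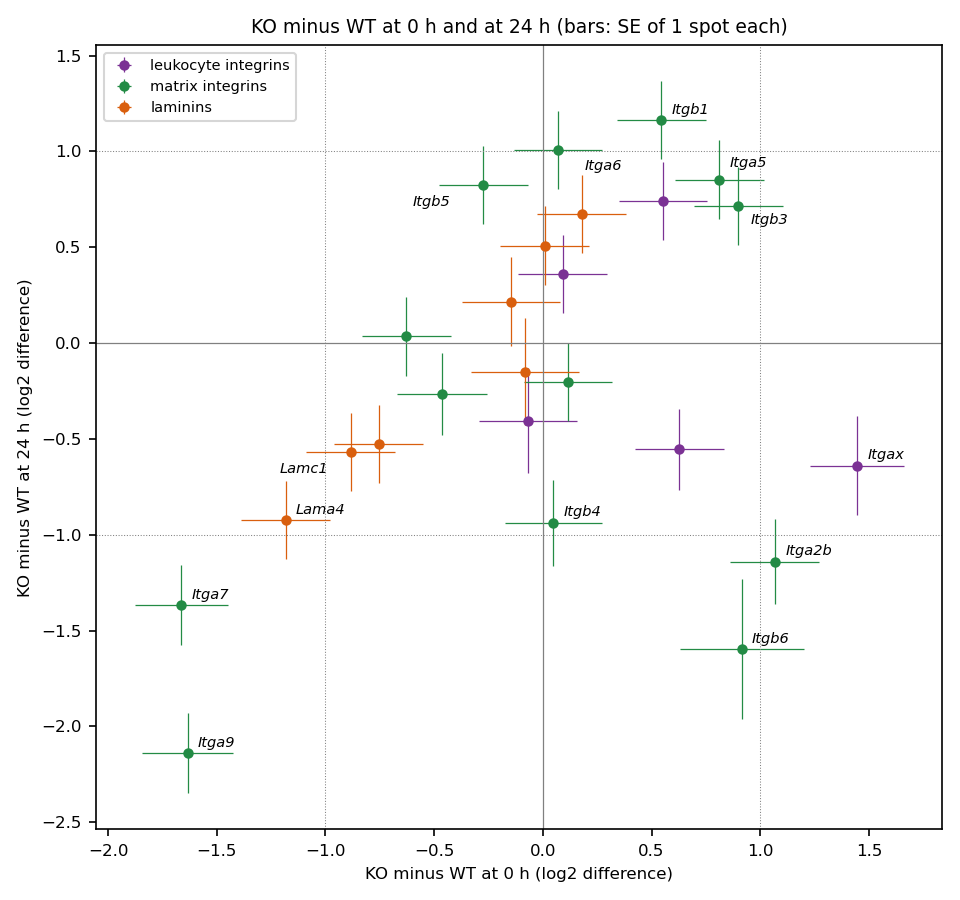
Log2 difference KO minus WT at 0 h (horizontal) against 24 h (vertical) for 25 integrin and laminin genes measured on all 4 arrays, with SE bars from the error of single spots and dotted lines at 2-fold. Itga7 and Itga9 lie below -1 on both axes, and Itga2b is higher in KO at 0 h (1.07) and lower at 24 h (-1.14).

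The KO change minus the WT change was past 2-fold in 6 of 26 members, 23.1% beside 18.0% of all genes (4.72% above and 13.3% below). Of these 2 lay above, Itgb5 (1.1) among them, and 4 below, Itgb6 (-2.51), Itga2b (-2.21), Itgax (-2.08) and Itgb2 (-1.18). Leukocyte integrins had a median of -0.34, laminins 0.34 and matrix integrins 0.04, beside 0.03 over all genes. The fibroblast scaling turned the laminin median to -0.25 and the matrix median to -0.55, while that of all genes moved to -0.56. The pan-leukocyte markers had a median of -0.67 and the dim spike-ins -1.37, and their part in the 4 lower members was not tested.

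Among ligands of these receptors other than laminins and collagens, Fbln5, Npnt, Tnc, Postn and Jam2 were at least 2-fold higher in KO at both times. Of 19 measured at 0 h, 7 were higher and 3 lower in KO, 52.6% past 2-fold beside 13.4% of all genes. Of 17 at 24 h, 6 were higher and 1 lower, 41.2% beside 18.0%. As lists were chosen with earlier results of these data known, these shares describe the listed genes and test nothing. Fbln5, an elastic fibre protein bound by alphaV integrins, differed by 3.72 at 0 h and 3.53 at 24 h, higher in KO. Npnt, the ligand of alpha8, was higher by 3.12 and 1.01, and Tnc, a ligand of alpha9, by 2.66 and 1.49. Postn, another alphaV ligand, was higher by 2.71 and 1.21, and Jam2 by 2.28 and 2.37.

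F11r, a junction protein bound by the alphaL receptor, read 1.37 on WT 0 h and 2.09 on WT 24 h and lay at background in both KO samples. It was at least 282-fold higher in WT at 0 h and 441-fold at 24 h. Svep1, a ligand of alpha9, was lower in KO by -2.23 and -2.99, and Vcam1, the ligand of alpha4, differed by -1.28 and -0.81. Spp1, osteopontin, was lower in KO at 0 h by -1.60 and not at 24 h (0.67), and Mfge8, an alphaV ligand, was higher at 24 h by 1.24. Between times, Icam2, a ligand of alphaL, differed by -7.45 in WT and -8.53 in KO, lower on the arrays where mast cell transcripts were lower. Between times 3 were higher and 2 lower of 18 in WT, 27.8% beside 21.4% of all genes, and 3 and 4 of 17 in KO, 41.2% beside 20.4%.

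Basement membrane partners of the laminins and the other matrix receptors completed the pathway. Of 16 partners measured at 0 h, 2 were higher and 1 lower in KO, 18.8% beside 13.4% of all genes. Of 13 at 24 h, 3 were higher and 2 lower, 38.5% beside 18.0%. The same limit of lists chosen with earlier results known holds for all shares in this paragraph. Agrn, which encodes agrin, was lower in KO by -2.33 and -1.72, and Nid2, a linker of laminin and collagen, differed by -0.90 and -2.41. Col18a1 was higher in KO by 1.77 and 2.04 and Smoc2, a basement membrane calcium-binding protein, by 1.55 and 2.69. Between times 1 partner was higher and 1 lower in each genotype: Nid2 (2.04) and Smoc2 (-2.82) in WT, and Ntn1, netrin-1 (1.78), and Smoc2 (-1.67) in KO. That is 12.5% of 16 in WT and 15.4% of 13 in KO, beside 21.4% and 20.4% of all genes. Of 17 other receptors and integrin partners measured in WT, 1 was higher at 24 h, and of 16 in KO, 6 were higher, with 0 lower in either. The shares were 5.88% and 37.5%, beside 15.8% and 9.48% of all genes called higher. These 6 were the syndecans Sdc1 (1.78), Sdc3 (1.19) and Sdc4 (1.42), the dystroglycan gene Dag1 (1.42), the collagen receptor Ddr2 (1.08) and Cav1 (1.43). In WT the same 6 lay between -0.11 and 0.84, and Bcam, a dim laminin receptor, was the 1 past 2-fold (1.20). KO minus WT, 1 of 17 was higher and 4 lower at 0 h, 29.4% beside 13.4% of all genes, and 2 of 16 were higher at 24 h, 12.5% beside 18.0%. Sdc3 differed by 2.24 and 2.85, and Plaur, the urokinase receptor that associates with integrins, by 1.00 (1.99-fold) and 2.08. Of 29 adhesion-site proteins, 5 were higher and 1 lower in KO at 0 h and 3 and 1 at 24 h, 20.7% and 13.8% beside 13.4% and 18.0% of all genes. Lims2, the second PINCH adaptor, was higher in KO by 4.27 and 4.46, Vcl by 1.07 and 1.03, and Rasgrp2 lower by -3.02 and -5.38.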

How the data were processed

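RNA of each group was hybridised to 1 single-colour (Cy3) Agilent array, with 200 ng labelled per the labels' protocols, and all 4 arrays lay on 1 slide. Per the file headers, Agilent Feature Extraction 12.1.1.1 gave the spot intensity, with background removed by spatial detrending, and probes were placed on mm9. The deposited value table holds a ratio, the processed signal over the array's 75th percentile. Its column medians were 0.0442 and 0.0452 in WT and 0.0483 and 0.0334 in KO, at 0 h and 24 h.

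Control spots were left out and the log2 of processed intensity was taken. Each array's 75th percentile over 43020 spots, outlier spots included, was subtracted, and outlier spots were then left out. Of the 43020 spots, 72.7% and 67.3% in WT and 71.5% and 62.1% in KO were well above background, and 0 were saturated. Precision is limited by having 1 array a group. Of the probes, 29104 were named through RefSeq accessions of GRCm38.p6 and 10325 kept the file's name, and 49 member probes matched with 0 changed symbols. The calculations used Python 3.11.15 and limma 3.58.1 in R 4.3.3, tested on simulated arrays. Members with their lists were chosen with earlier results of these data known. Members are named with 4 signals where measured on all arrays, except 1 counted in the totals but not reported here, and other genes where they passed 2-fold. The 7 alternatives were quantile normalization, normexp (offset 50) with quantile normalization, the value table, all probes kept however dim, a stricter filter (measured on all arrays and above the array median on average), the mean of probes, and scaling to fibroblast markers.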

Additional observations from a re-analysis of the deposited data

Results flagged for a closer look

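Itgb6 differed between times in opposite directions in the genotypes, by 1.38 (SE 0.29) in WT and -1.13 (SE 0.36) in KO, so the KO change minus the WT change was -2.51 (SE 0.46). The difference between genotypes was not tested, since each group is 1 array. All 4 signals were dim, between -6.11 and -4.51, and with normexp the differences were 0.31 in WT and -0.11 in KO. The dim spike-ins differed in the same directions, by 1.11 in WT and -0.26 in KO. The part of this in the Itgb6 result was not tested. On none of the arrays was the second Itgb6 probe well above background.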

How the results depend on the processing

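Of 105 comparisons of the 15 counts and medians with their value under an alternative, 80 stayed within 1.5 times (counts) or within the median SE (0.20, or 0.29 for the KO change minus the WT change), 25 moved further, and the authors' value table moved 0. Counts of members past 2-fold are given in the order WT between times, KO between times, KO minus WT at 0 h, at 24 h, and KO change minus WT change. Against 7, 11, 8, 6 and 6, they were 3, 5, 3, 3 and 3 with normexp and 14, 18, 13, 11 and 16 with no filter on dim probes, where values at the floor have no order. The share of all genes past 2-fold was 6.24%, 12.3%, 6.67%, 7.82% and 6.61% with normexp. With no filter it was 37.0%, 27.0%, 17.7%, 31.3% and 41.6%, in place of 21.4%, 20.4%, 13.4%, 18.0% and 18.0%. The stricter filter left 4 in WT and 5 in KO minus WT at 0 h. Scaled to fibroblast markers the counts stayed within 1.5 times, but the KO calls between times became 1 higher and 7 lower in place of 6 and 5. Those at 0 h became 12 and 0 in place of 5 and 3, and those of the KO change minus the WT change 0 and 6 in place of 2 and 4. All genes then had 202 higher and 4858 lower, 7226 and 282, and 188 and 4600, in the same order. In KO minus WT at 24 h, normexp gave 2 higher and 1 lower in place of 2 and 4, and over all genes 680 and 673 in place of 996 and 2122.

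The matrix integrin median in KO between times was 0.56 with quantile normalization and -0.47 with fibroblast scaling (0.25). At 0 h it was 0.39 with the mean of probes and 0.82 with fibroblast scaling (0.12), and at 24 h 0.035 both with the mean of probes and with no filter (-0.20). For the KO change minus the WT change it was -0.55 with fibroblast scaling (0.04). The laminin median in KO between times was 0.54 with normexp, 1.07 with the stricter filter and 0.050 with fibroblast scaling (0.78). KO minus WT laminins gave 0.56 at 0 h with fibroblast scaling (-0.14) and 0.47 at 24 h with quantile normalization (0.03), and the KO change minus the WT change gave -0.25 with fibroblast scaling (0.34). The cause of these shifts was not tested. Over all genes, higher calls were 73.9%, 46.5%, 69.6%, 31.9% and 26.2% of calls in the same order, against 64.9%, 60.8%, 58.3%, 46.0% and 45.6% with quantile normalization, 38.8%, 45.6%, 59.3%, 50.3% and 41.5% with normexp, and 66.3%, 3.99%, 96.2%, 39.9% and 3.93% with fibroblast scaling. Leaving out an array leaves no value for its group, and no paired analysis was possible because each group is 1 array without a replicate number.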

Other observations

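Several members had probes that gave unlike differences, each value being of a probe well above background on all 4 arrays. Itgam's other 2 probes differed between times by 0.40 and 1.16 in WT, where the chosen probe gave -0.52. In KO they gave -0.21 and -0.81, beside -0.25. Itgav's second probe was 0.58 higher at 24 h in KO, where the chosen one differed by 0.00. The probes of Itga10 gave -0.59 and -0.90 in WT and -0.39 and -0.30 in KO. Of the 37 genes, 13 had more than 1 probe.

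Markers of other cells that could carry integrins were low or mixed. Of 12 endothelial, epithelial and muscle markers 9, 6, 9 and 5 were well above background on WT 0 h, WT 24 h, KO 0 h and KO 24 h, with median signals of -5.62, -6.01, -5.50 and -6.81. Cdh5, Myod1 and Myog were above background on none. Of 11 macrophage and granulocyte markers 10, 9, 10 and 9 were above background, with medians of -1.43, -2.81, -3.12 and -3.54. Adgre1, the macrophage marker F4/80, read -1.43, -6.23, -0.43 and -4.99, and so was higher on the arrays that carried mast cell transcripts. Cd14 went the other way, at -0.02, 1.52, -0.27 and 1.66, while Csf1r read -0.47, -0.15, -1.08 and 0.01. Of 8 macrophage and granulocyte markers measured at both times in WT, 2 were higher and 2 lower at 24 h. Of 9 in KO, 3 were higher and 3 lower. The part of such cells in the leukocyte integrin signals was not tested.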
